A study of Xenopus tropicalis with 84 samples.

Results

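These 107 transcripts of *Xenopus tropicalis* have no gene name in the deposited table and disappeared from control embryos between cleavage and gastrulation. Members were rows with no symbol, or with a provisional symbol that starts with LOC, that averaged at least 20 TPM (a share of all transcripts of a library, adjusted for transcript length) in control libraries at 2, 2.5 and 3 hours post fertilization (hpf) and under 10% of that at 11, 11.5 and 12 hpf. The table holds 34192 genes other than ERCC spike-ins, of which 7405 have no symbol and 8830 have a LOC symbol. Of the members, 26 have no symbol and 81 have a LOC symbol. Among unnamed rows that reached 20 TPM at the start, 107 of 625 (17.1%) met the limit for clearance, and among named genes 594 of 6166 did (9.63%). The fall in control embryos was the ground for selection, so it is described here without a test.

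The study compared embryos that had received 10 ng of a morpholino, an antisense oligonucleotide that covers the start codon of *nup107* (*nup107* MO), with uninjected control (UIC) embryos. No control injection was included among these libraries, so the injection and the loss of Nup107 cannot be told apart. Synchronous embryos from *in vitro* fertilization were raised at 25 °C, and polyA+ RNA of 10 whole embryos was sequenced every 0.5 h from 2 to 12 hpf. There were 21 libraries in each condition, 1 per time point, and hence no replicate at any time point. *nup107* itself averaged 197.4 TPM in *nup107* MO and 199.7 TPM in UIC at 2 to 3 hpf, and 72.8 TPM in *nup107* MO and 30.4 TPM in UIC at 11 to 12 hpf. An oligonucleotide of this kind blocks translation, so these mRNA levels do not check the labels. ERCC spike-ins took 4.60% to 5.98% of TPM in *nup107* MO libraries and 4.46% to 6.35% in UIC libraries. TPM keep no read counts, so the depth behind each value is unknown.

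An egg is loaded with maternal mRNA that directs the first cell divisions before the genome of the embryo is transcribed. During the maternal-to-zygotic transition these messages are removed in waves, through deadenylation by maternal factors and later through products of zygotic transcription. In *Xenopus*, the microRNA miR427 is a known zygotic agent of this removal, and Nup107, a scaffold subunit of the nuclear pore, was studied here for its part in that pathway. PolyA+ libraries recover polyadenylated RNA, so loss of a polyA tail and loss of the message lower TPM alike. Whole embryos were sequenced, so fewer cells with a transcript and less RNA per cell cannot be told apart.

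The unnamed transcripts fell along nearly the same course in both conditions. Each was expressed as a percent of its own mean at 2 to 3 hpf in the same condition. A difference between the conditions that was already present at the start is therefore not shown. At 5 hpf the median member stood at 89.2% in *nup107* MO and 86.2% in UIC, at 6.5 hpf at 74.6% in *nup107* MO and 73.7% in UIC, and at 8 hpf at 27.5% in *nup107* MO and 29.6% in UIC. The steep part of the fall thus lay between 6.5 and 8 hpf. By 10 hpf the median was 7.33% in *nup107* MO and 7.22% in UIC, and at 12 hpf it was 3.25% in *nup107* MO and 3.49% in UIC. Summed over the 107 transcripts, their share of all TPM at 2 hpf was 2.29% in *nup107* MO and 2.37% in UIC. At 12 hpf the share was 0.0473% in *nup107* MO and 0.0454% in UIC. The 594 named genes that met the same limits took 10.7% in *nup107* MO and 10.9% in UIC at 2 hpf.

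**Figure D1:**
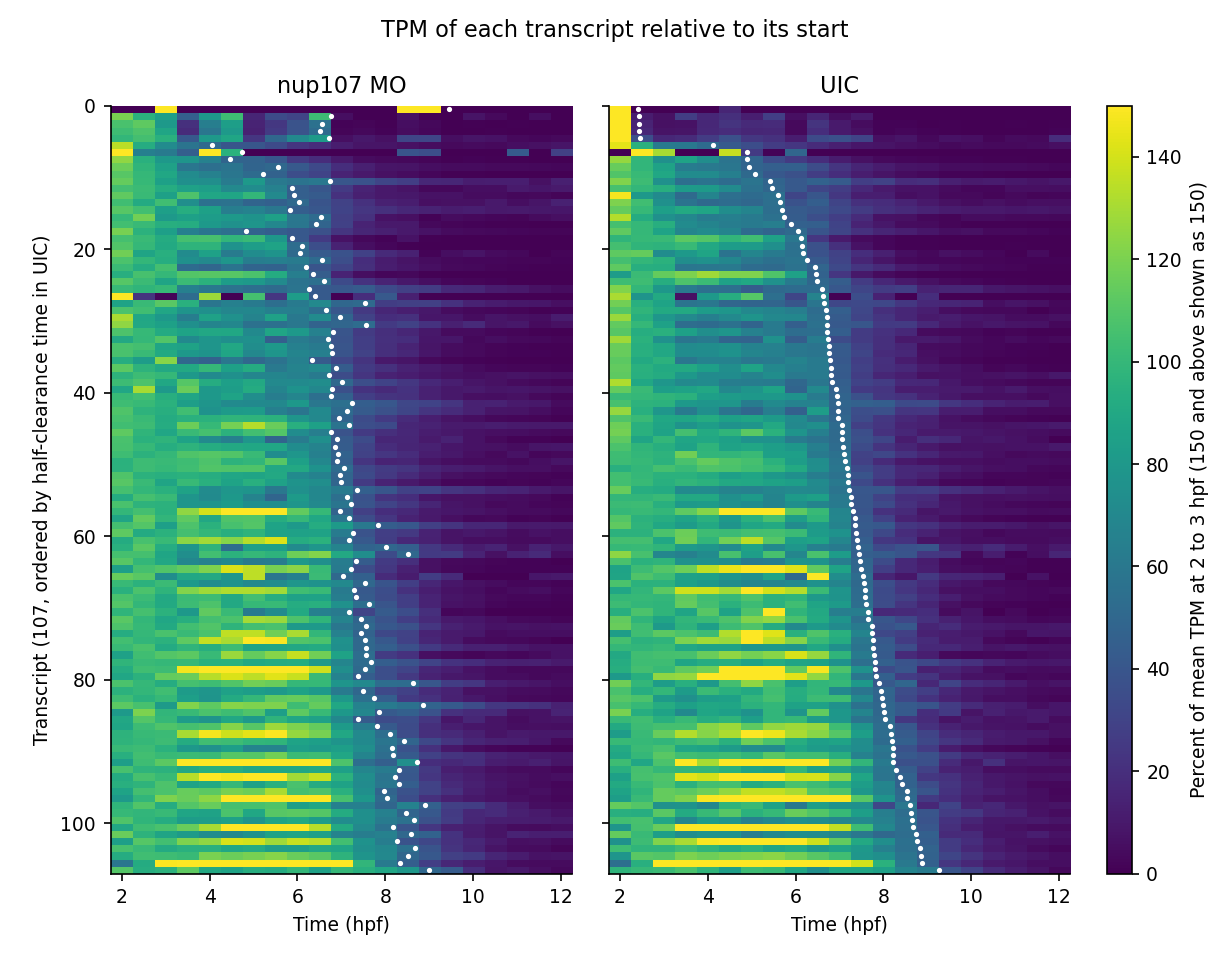
Level of each of the 107 transcripts (rows, in the order of their half-clearance time in UIC) against time in hpf, as a percent of its own mean TPM at 2 to 3 hpf, in *nup107* MO (left) and UIC (right). White points mark the half-clearance time, which had a median of 7.18 hpf in *nup107* MO and 7.22 hpf in UIC.

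Half-clearance time, the last time at which the interpolated level fell through 50% of the start, had a median of 7.18 hpf in *nup107* MO (quartiles 6.71 and 7.82) and 7.22 hpf in UIC (quartiles 6.64 and 7.87). The difference per transcript, *nup107* MO minus UIC, had a median of -0.116 h (quartiles -0.226 and 0.160), which is less than the 0.5 h between samples. Clearance was later in *nup107* MO for 39 transcripts and earlier for 68, and 88 of 107 differed by at most 0.5 h. More than 0.5 h separated 19 transcripts, of which 15 were later and 4 were earlier in *nup107* MO. The 15 include 5 rows whose start in UIC rests on the earliest UIC library. Of the other later ones, all but gene10062, LOC100487104 and LOC779566 had a lower start in *nup107* MO, which by itself favours a later time. All 4 earlier ones had a higher start in *nup107* MO, which by itself favours an earlier time. This split therefore does not show delayed clearance. Named cleared genes gave a like picture, with medians of 7.40 hpf in *nup107* MO and 7.46 hpf in UIC and a median difference of -0.0833 h, 33.3% later and 66.7% earlier. Of these 594 genes, 38 were later and 11 earlier in *nup107* MO by more than 0.5 h. The speed of the fall was also close: the step between 50% and 25% of the start took a median of 1.02 h in *nup107* MO and 0.977 h in UIC. These times rest partly on the values that chose the members, so they carry no test.

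**Figure D2:**
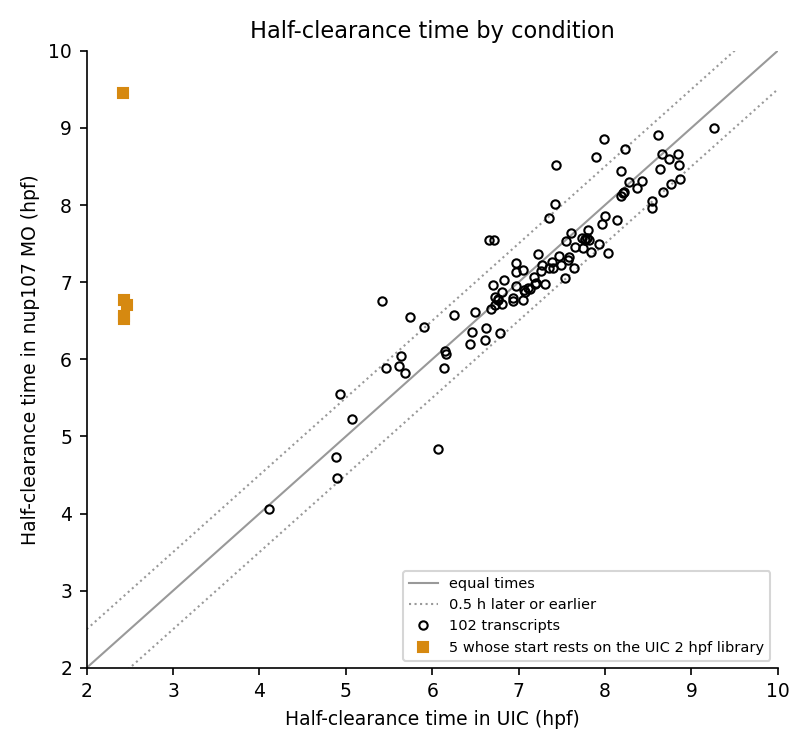
Half-clearance time of each transcript in *nup107* MO (y axis, hpf) against UIC (x axis, hpf), with lines for equal times and for 0.5 h later or earlier. Of the 107 transcripts 88 lie within 0.5 h of equal times, and the 5 filled squares are rows whose start in UIC rests on the 2 hpf library.

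Most transcripts reached 50% of their start within a few hours of each other. In *nup107* MO, 36 did so between 6 and 7 hpf, 37 between 7 and 8 hpf and 23 between 8 and 9 hpf. In UIC, 27 did so between 6 and 7 hpf, 40 between 7 and 8 hpf and 22 between 8 and 9 hpf. Only 1 transcript in each condition was later than 9 hpf, LOC105947414 in UIC and gene9002 in *nup107* MO. The time of gene9002 rests on isolated values, since it was above 0 in *nup107* MO only at 3, 8.5 and 9 hpf. Before 6 hpf were 10 in *nup107* MO (4 before 5 hpf) and 17 in UIC (5 before 3.5 hpf and 4 between 3.5 and 5 hpf). The direction of the shift varied along this range, which is given as a description. Among the 15 transcripts with a mean half-clearance time of both conditions before 6 hpf, 11 were later in *nup107* MO (median difference 0.404 h); without the 5 rows whose start in UIC rests on the 2 hpf library, 6 of 10 were later (median difference 0.145 h). Among the 42 between 7 and 8 hpf, 10 were later (median difference -0.195 h), and among the 22 after 8 hpf, 7 were later (median difference -0.128 h). Named cleared genes had the same signs, with 28 of 38 later before 6 hpf and a median difference of -0.143 h between 7 and 8 hpf. Named genes whose start rests on the UIC 2 hpf library were not taken out of these counts. Between 2 and 3.5 hpf, 1 named gene halved in *nup107* MO and 8 in UIC.

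LOC101732088 was the most abundant member, and is not matched by the RefSeq table used here. In *nup107* MO it had 2989.7 TPM at 2 hpf, 2403 TPM at 5 hpf, 1349.6 TPM at 7 hpf, 323.2 TPM at 9 hpf and 35.8 TPM at 12 hpf. In UIC it had 3132 TPM at 2 hpf, 2644 TPM at 5 hpf, 1699.6 TPM at 7 hpf, 414 TPM at 9 hpf and 49.2 TPM at 12 hpf. It thus declined slowly up to 5 hpf in both conditions and halved at 6.98 hpf in *nup107* MO and 7.19 hpf in UIC. The other abundant members, each at more than 560 TPM in UIC at the start, were LOC100487334, LOC394448, LOC100493862, LOC733731, LOC101730335, LOC100170427, LOC100486817, LOC101732421 and LOC733539. Among these, LOC100493862 was the last to halve, at 8.16 hpf in *nup107* MO and 8.21 hpf in UIC. LOC394448 had 1297 TPM in *nup107* MO and 1354 TPM in UIC at the start, and 0.144% of that in *nup107* MO and 0.110% in UIC at 11 to 12 hpf. By level at the start, transcripts of at least 300 TPM had the earliest median half-clearance time in UIC, at 6.64 hpf. Those of 50 to 300 TPM had 7.43 hpf and those of 20 to 50 TPM 7.31 hpf, so the lower classes did not follow that order.

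Some messages gained before they were lost. LOC733731 is *btg5.1* in RefSeq, a member of the BTG family of antiproliferative proteins. It had 1070.3 TPM at 2 hpf in *nup107* MO and 897 TPM in UIC, 1265 TPM in *nup107* MO and 1389.6 TPM in UIC at 4 hpf, 504 TPM in *nup107* MO and 512 TPM in UIC at 6.5 hpf and 31.3 TPM in *nup107* MO and 48.0 TPM in UIC at 8 hpf. Its level thus held up to 5 hpf and then dropped within 3 h in both conditions. LOC100170463 is *cx38* in RefSeq, the gap junction protein of *Xenopus* oocytes and early embryos. It had 48.9 TPM in *nup107* MO and 38.5 TPM in UIC at 2 hpf, 74.1 TPM in *nup107* MO and 83.8 TPM in UIC at 5 hpf, and 2.39 TPM in *nup107* MO and 1.26 TPM in UIC at 12 hpf. In 8 transcripts the highest level of 3.5 to 6 hpf was at least 1.5 times the start in both conditions: gene14328, LOC100496857, LOC101733623, LOC100493797, LOC100036702, LOC733928, LOC100496216 and LOC100488459. These peaked from 5 to 6 hpf in *nup107* MO and from 5 to 5.5 hpf in UIC, and the highest peaks were those of gene14328 in *nup107* MO, at 2.71 times its start, and of LOC101733623 in UIC, at 3.06 times. Their median half-clearance time was 8.11 hpf in *nup107* MO and 8.30 hpf in UIC. That time is set by the start before the rise, so a late one follows in part from this choice. Of the 8, 7 were earlier in *nup107* MO, as were 68 of all 107 transcripts. For all but gene14328 and LOC100488459 the start was higher in *nup107* MO, which by itself favours an earlier time. TPM are shares of the library, so a gain here is relative to the other polyadenylated RNA.

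At the early end, LOC733945 declined from the first sample on. In *nup107* MO it had 315 TPM at 2 hpf, 170.1 TPM at 3 hpf, 94.1 TPM at 5 hpf and 27.6 TPM at 7 hpf, and in UIC it had 378 TPM at 2 hpf, 161 TPM at 3 hpf, 92.9 TPM at 5 hpf and 34.4 TPM at 7 hpf. It halved at 4.07 hpf in *nup107* MO and 4.11 hpf in UIC. After low values of 8.53 TPM in *nup107* MO at 10.5 hpf and 8.67 TPM in UIC at 9.5 hpf, it rose again. At 12 hpf it stood at 19.9 TPM in *nup107* MO and 16.2 TPM in UIC. At the late end, LOC105947414 kept its level past 8 hpf, with 32.6 TPM in *nup107* MO and 34.1 TPM in UIC at 8 hpf against 40.3 TPM in *nup107* MO and 38.8 TPM in UIC at 2 hpf. It halved at 9.00 hpf in *nup107* MO and 9.27 hpf in UIC. The next latest were LOC101733623 (8.34 hpf in *nup107* MO and 8.87 hpf in UIC), LOC779483 (8.52 hpf in *nup107* MO and 8.86 hpf in UIC), LOC733556 (8.67 hpf in *nup107* MO and 8.84 hpf in UIC) and LOC100497109 (8.27 hpf in *nup107* MO and 8.76 hpf in UIC). All 5 of these latest transcripts in UIC were earlier in *nup107* MO, by 0.178 to 0.53 h; they were picked as the latest in UIC, which by itself favours that sign.

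**Figure D3:**
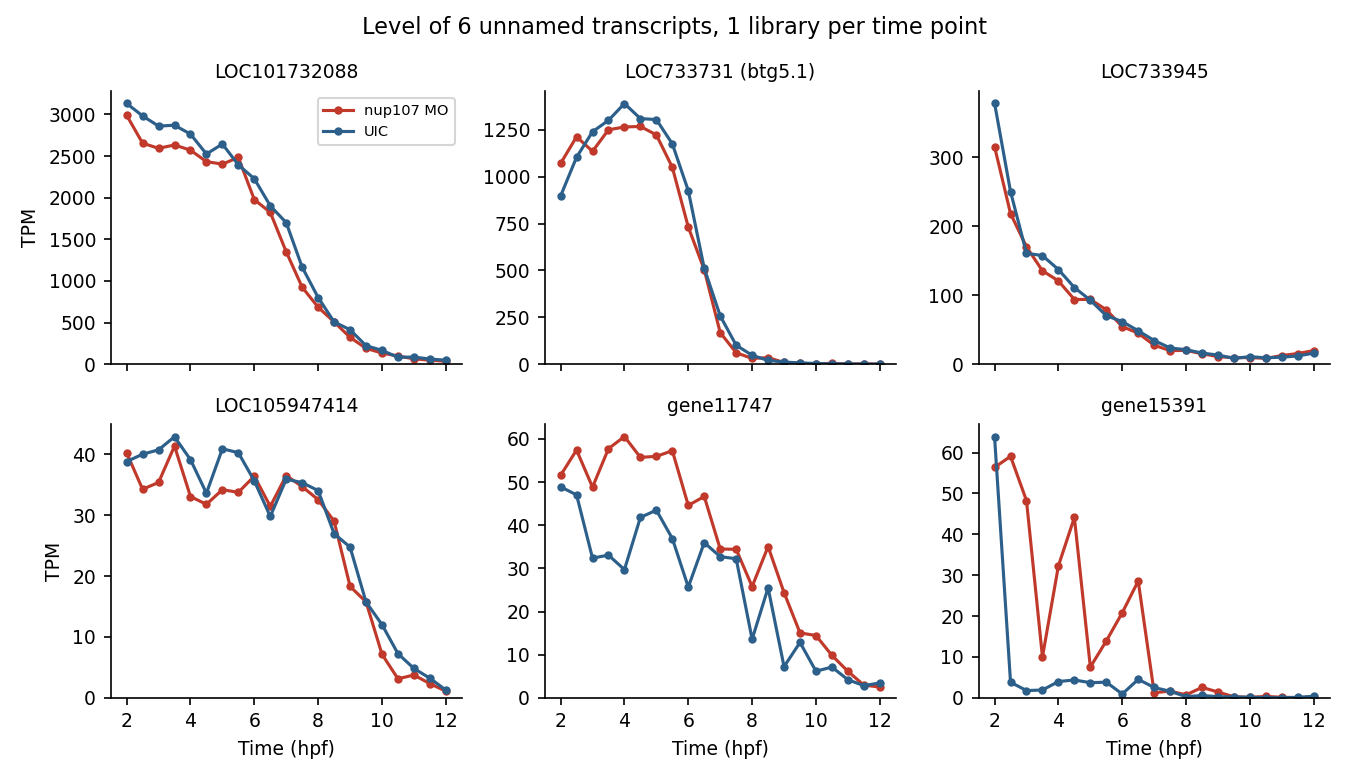
TPM against time (hpf) of 6 of the transcripts in *nup107* MO and UIC, 1 library per point: the most abundant, one that rises first, the earliest steady decline, the latest clearance and 2 that were higher in *nup107* MO. LOC101732088 fell to 35.8 TPM in *nup107* MO and 49.2 TPM in UIC at 12 hpf, and gene15391 shows the gap that opens in UIC after the 2 hpf library.

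Differences between the conditions were tested on the 15 time points of 3.5 to 10.5 hpf, which had no part in the selection. Of the 107 transcripts, 106 passed the filter on low values; gene9002 did not. The first test was the study's Gaussian process (GP) likelihood ratio (LR), which asks whether separate curves for the conditions fit better than 1 joint curve and calls a gene at an LR over 0. It called 8 of the 106 higher in *nup107* MO (7.55%), where 5.8% of the 15011 genes tested were called higher, and 0 lower, where 1.91% of all were. Of the 8, LOC100496129 passed the filter through *nup107* MO alone and gives no support to a direction; without it there are 7. The second was a limma model of log2(TPM + 1) with the libraries paired by time point and Benjamini-Hochberg adjustment over all genes tested. At an adjusted p under 0.05 it called 7 higher (6.60%), against 7.68% of all genes, and 16 lower (15.1%), against 4.06% of all genes and 17.7% of the named cleared genes. Calls in the higher direction were therefore close to the background in both tests, and 6 transcripts were called higher by both. The number of lower calls depended on the scaling, among all genes too. With libraries scaled by ERCC spike-ins limma called 17 of the 106 higher and 1 lower (12.2% and 0.187% of all genes), and with scaling by median ratios 7 higher and 25 lower (6.15% and 6.22% of all genes). Without the 7 hpf pair 10 of the 106 were called lower (2.82% of all genes), and without the 7 and 9 hpf pairs, an alternative chosen after seeing the data, 8 were called higher and 8 lower (5.50% and 1.89% of all genes). In each of these settings the share of the 106 called lower was above that of all genes, though with ERCC scaling it rests on 1 call. With every second time point limma called 0 in either direction. Neighbouring time points are not independent, so these p-values measure the spread among time points.

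The mean log2 difference over these 15 time points had a median of -0.05 over the 107 transcripts, with 69 below 0 (64.5%), while over all genes tested it was 0.01 with 44.9% below 0. With ERCC scaling the sign for the transcripts turned, to 0.03 against 0.08 over all genes. The median of the transcripts minus that of all genes changed less, at -0.065 for TPM as deposited, -0.050 with ERCC scaling and -0.070 with median ratios. By time point, the median of the transcripts stayed between -0.06 and 0.02 from 3.5 to 6.5 hpf. At 7 hpf it was -0.16 with 80 of 107 lower in *nup107* MO, at 7.5 hpf it was -0.12 with 87 lower, and at 8 hpf -0.12 with 76 lower. It was 0.02 at 8.5 hpf and -0.21 at 9 hpf, and from 9.5 hpf on it lay between -0.09 and 0.08. The lower medians at 7, 7.5 and 8 hpf thus lay in the steep part of the fall and that at 9 hpf after it, and the pairs at 7 and 9 hpf gave the most negative medians. Named cleared genes had -0.14 at 7 hpf and -0.17 at 9 hpf, and all genes tested had 0.00 at 7 hpf and -0.03 at 9 hpf.

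**Figure D4:**
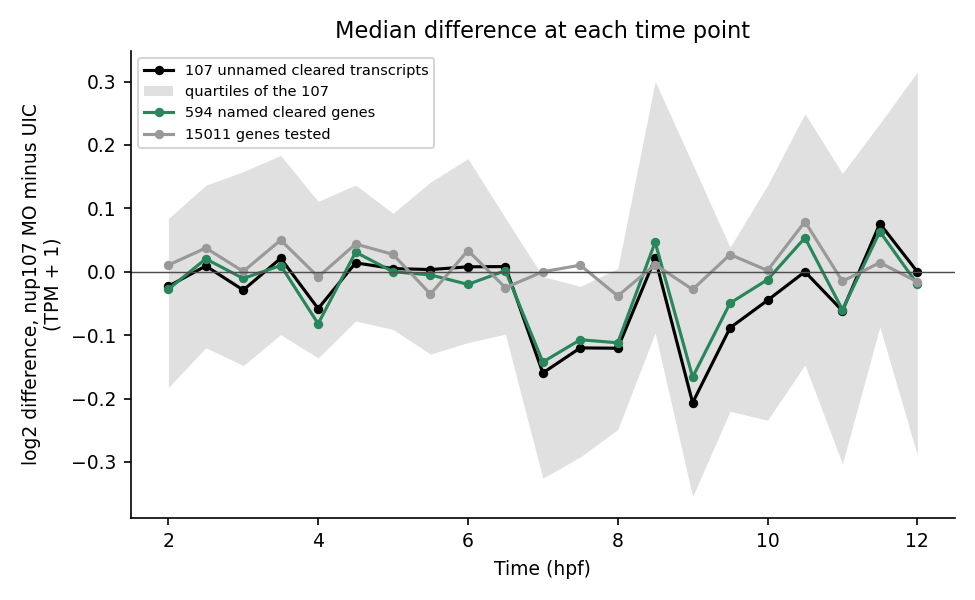
Median log2 difference, *nup107* MO minus UIC, of TPM + 1 at each time point (hpf) for the 107 transcripts with their quartiles (shaded), the 594 named cleared genes and all 15011 genes tested. The medians of both cleared sets dip at 7 to 8 hpf and at 9 hpf, to -0.16 and -0.21 for the 107 transcripts.

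Whether the difference itself changed over time was tested as the difference at 8.5 to 10.5 hpf minus that at 3.5 to 5.5 hpf. With limma, 0 of 106 transcripts became more positive, where 0.16% of all genes did, and 0 more negative, where 0.0466% did. The lowest limma adjusted p among the 106 transcripts was 0.105. No other tool was run for this contrast.

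The 16 transcripts called lower in *nup107* MO by limma differed by small amounts, with log2 differences from -0.30 to -0.11, and each had a GP LR below 0. LOC733539 was lower in *nup107* MO at all 15 time points (-0.27 ± 0.05, SE; limma adjusted p = 0.00166). At 4 hpf it had 349 TPM in *nup107* MO and 419 TPM in UIC, at 7 hpf 139 TPM in *nup107* MO and 182 TPM in UIC, and at 10 hpf 22.2 TPM in *nup107* MO and 38.2 TPM in UIC. At 3 hpf the values were 503.1 TPM in *nup107* MO and 503.5 TPM in UIC, so the gap opened after the start. It was the 1 lower call that held with ERCC scaling (-0.18, limma adjusted p = 0.0462). Its half-clearance time was 4.84 hpf in *nup107* MO and 6.07 hpf in UIC, and without the 6 hpf pair, an alternative chosen after seeing the data, 4.84 hpf in *nup107* MO and 5.30 hpf in UIC.

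LOC100497142 was also lower in *nup107* MO at all 15 time points (-0.20 ± 0.04, limma adjusted p = 0.00779). LOC100491090 differed by -0.20 ± 0.04 (limma adjusted p = 0.0036) and LOC733556 by -0.19 ± 0.04 (limma adjusted p = 0.00488), each lower at 14 of 15 time points. The largest size among the 16 was that of gene9324, at -0.30 ± 0.09 (limma adjusted p = 0.0494), a low transcript with 28.8 TPM in *nup107* MO and 30.3 TPM in UIC at the start. It lost its call in 7 of 10 alternatives, with adjusted p of 0.0748 without the 7 hpf pair, 0.0959 without the 9 hpf pair, 0.0608 without the 6 hpf pair and from 0.0147 to 0.181 over all 10. LOC101732799 (-0.26 ± 0.06) and LOC100490651 (-0.20 ± 0.05) were the remaining ones of the 5 largest. For LOC101732088 the difference was -0.14 ± 0.04 (limma adjusted p = 0.041), and it lost its call in 6 of 10 alternatives. The other lower calls were LOC101732421, LOC100145035, LOC100486773, LOC108648249, LOC733945, LOC100145131 (*linc02867* in RefSeq), LOC100496285 and LOC100489788, of which LOC733945 lost its call in 7 of 10 alternatives and LOC101732421 in 6.

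**Figure D5:**
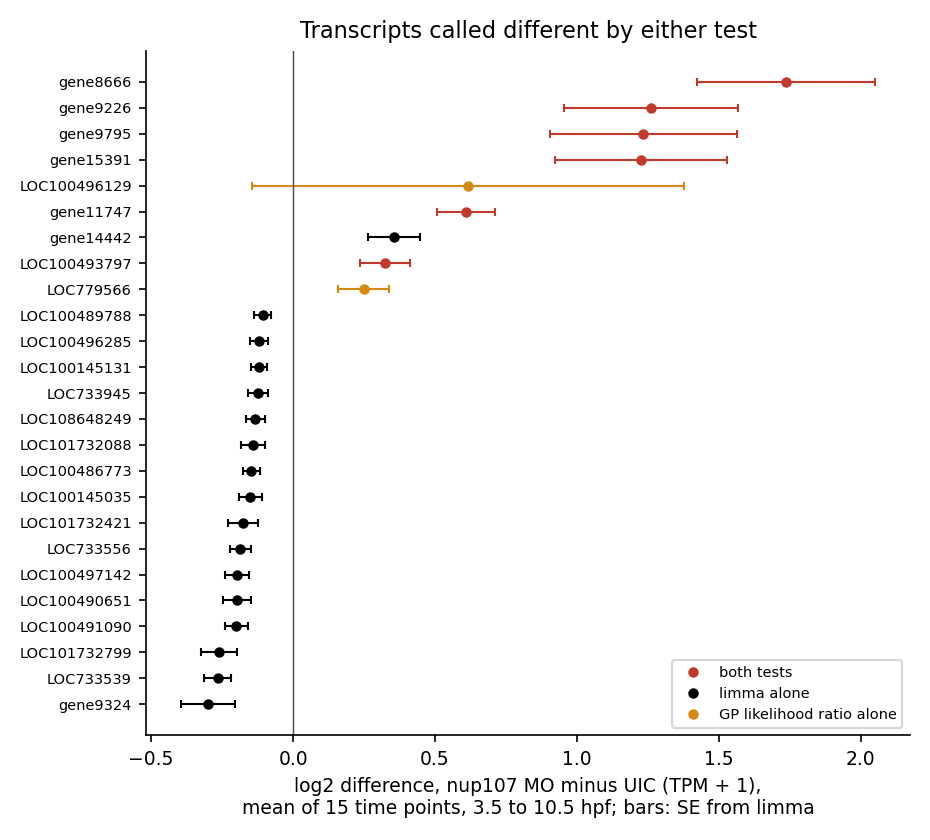
Mean log2 difference, *nup107* MO minus UIC, of TPM + 1 over the 15 time points of 3.5 to 10.5 hpf, with the SE from limma, for the transcripts called different by either test. The 16 lower calls lie between -0.30 and -0.11, and 4 of the higher ones lie above 1.

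The largest differences belonged to 4 rows without a symbol, gene8666, gene9226, gene15391 and gene9795. Their log2 differences were 1.74 ± 0.31 for gene8666, 1.26 ± 0.31 for gene9226, 1.23 ± 0.33 for gene9795 and 1.23 ± 0.30 for gene15391 (limma adjusted p from 0.00222 to 0.0224), and their GP LR ran from 11.9 to 14.8. In *nup107* MO, gene15391 had 56.4 TPM at 2 hpf, 59.1 TPM at 2.5 hpf, 48.2 TPM at 3 hpf, 9.99 TPM at 3.5 hpf, 44.1 TPM at 4.5 hpf, 7.53 TPM at 5 hpf, 28.6 TPM at 6.5 hpf and 1.26 TPM at 7 hpf. In UIC it had 63.8 TPM at 2 hpf, 3.82 TPM at 2.5 hpf, 1.78 TPM at 3 hpf, 4.36 TPM at 4.5 hpf, 0.93 TPM at 6 hpf and 2.53 TPM at 7 hpf. At 7.5 hpf it had 1.64 TPM in *nup107* MO and 1.60 TPM in UIC. UIC thus lay close to *nup107* MO at 2 hpf and below it from 2.5 to 6.5 hpf, both were low from 7 hpf on, and *nup107* MO moved up and down several-fold between neighbouring libraries.

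The other 3 rows had the same outline up to 6.5 hpf, and from 7 hpf on gene9226 and gene9795 were low in both conditions. This did not hold for gene8666, which had 3.69 TPM in *nup107* MO and 9.58 TPM in UIC at 7 hpf. At 9 hpf it had 19.8 TPM in *nup107* MO and 0.86 TPM in UIC. At 2.5 hpf gene8666 had 66.0 TPM in *nup107* MO and 9.48 TPM in UIC, gene9226 had 58.3 TPM in *nup107* MO and 3.31 TPM in UIC, and gene9795 had 39.96 TPM in *nup107* MO and 2.84 TPM in UIC. In TPM, gene9226 and gene15391 were close to each other. At 2 hpf they had 55.1 and 56.4 TPM in *nup107* MO and 61.5 and 63.8 TPM in UIC, and at 3.5 hpf 10.7 and 9.99 TPM in *nup107* MO. Their calls may therefore not be separate, and whether these 2 rows share reads was not tested. Across the 42 libraries the log2 levels of these 4 rows correlated with Pearson's r from 0.885 to 0.997, the highest between gene9226 and gene15391. These libraries share the fall with time and their library preparation, so r is a description. Pearson's r of the 4 rows against *mga*, like *rest* and *hivep1* a gene that the study picked from these libraries, was 0.857 to 0.966, against *rest* 0.827 to 0.936 and against *hivep1* 0.813 to 0.859. In UIC the 2 hpf library made up 82.4% to 93.9% of the start of these 4 rows, and 100% for gene9002 (363.6 TPM at 2 hpf in UIC, 0 TPM at 2.5 and 3 hpf). With the rule taken on UIC at 2.5 and 3 hpf alone, an alternative chosen after seeing the data, 97 of the 107 transcripts stayed members and none of these 5 rows did. The GP then called 4 of 101 tested rows higher (5.8% of all genes), LOC100496129 among them, and limma 4 higher (7.68% of all genes). Of the limma calls in the higher direction only gene11747 and LOC100493797 stayed, and the others of its 4 were rows gained by the changed rule. For the 5 rows that rest on the UIC 2 hpf library, half-clearance times of 2.42 to 2.47 hpf in UIC against 6.52 to 9.45 hpf in *nup107* MO were the 5 largest shifts towards later clearance. Of these, gene9002 was listed above 0 in *nup107* MO only at 3 hpf (38.5 TPM), 8.5 hpf (59.3 TPM) and 9 hpf (68.2 TPM), and in UIC only at 2 hpf and 4.5 hpf (18.5 TPM). The part of the 2 hpf library of UIC in these results was not tested further.

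A few other rows were higher by either test with smaller differences. Of these, gene11747 was higher in *nup107* MO at all 15 time points, by 0.61 ± 0.10 (limma adjusted p = 0.00124, GP LR 7.43). It had 60.6 TPM in *nup107* MO and 29.7 TPM in UIC at 4 hpf, 44.6 TPM in *nup107* MO and 25.7 TPM in UIC at 6 hpf, 34.4 TPM in *nup107* MO and 32.2 TPM in UIC at 7.5 hpf and 24.4 TPM in *nup107* MO and 7.23 TPM in UIC at 9 hpf. The gap was wide at 4 and 6 hpf and nearly closed at 7.5 hpf. It was wide again at 8 hpf (25.8 TPM in *nup107* MO and 13.6 TPM in UIC) and at 9 hpf. LOC100493797 was higher by 0.32 ± 0.09 (limma adjusted p = 0.0251, GP LR 2.64), with 81.2 TPM in *nup107* MO and 41.4 TPM in UIC at 4 hpf but 33.95 TPM in *nup107* MO and 38.0 TPM in UIC at 7 hpf. Limma alone called gene14442 (0.35 ± 0.09, adjusted p = 0.0188, GP LR -0.10).

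The GP alone called 2 further transcripts. LOC779566 is *germes* in RefSeq, a germ plasm-associated gene first described in *Xenopus laevis*. Its difference was 0.25 ± 0.09 (limma adjusted p = 0.0826, GP LR 1.06), with 62.2 TPM in *nup107* MO and 47.9 TPM in UIC at 6 hpf, 48.7 TPM in *nup107* MO and 57.0 TPM in UIC at 7 hpf, and 25.1 TPM in *nup107* MO and 9.49 TPM in UIC at 9 hpf. The other was LOC100496129, which exceeded 0.4 TPM at 6 consecutive time points in *nup107* MO alone and was listed at 0 in 4 *nup107* MO and 3 UIC libraries of 2 to 6.5 hpf and at up to 115 TPM in *nup107* MO and 106 TPM in UIC in others. Its limma difference was 0.62 ± 0.76 with an adjusted p of 0.66. Of the 9 transcripts called higher by either test, 8 had a UIC value at 6 hpf below both neighbouring time points, and 6 each did so at 8 hpf and 9 hpf, while 35, 12 and 15 of all 107 did so at those times. In *nup107* MO, 3 of the 9 did so at 6 hpf, 5 at 8 hpf and 0 at 9 hpf. Of all 107, 17, 16 and 8 did so in *nup107* MO at those times. Without the 6, 8 and 9 hpf pairs, an alternative chosen after seeing the data, the GP called 7 higher, without *germes*, and limma 4 higher and 8 lower, with gene15391 among the calls that limma lost (1.13, adjusted p = 0.0511). The part of these libraries in the calls was not tested further.

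RefSeq annotation of the UCB_Xtro_10.0 assembly matched 62 of the 81 LOC symbols by gene number, 61 of them as protein coding and 1 as a long non-coding RNA (LOC101735165), and it gave 11 a name. The table was made on the older Xt9.1 assembly, so no position is given. Besides *btg5.1*, *cx38*, *germes* and *linc02867* these were *arhgef18*, *b4galt3*, *abo.2*, *ccdc107*, *proser3*, *trim21* and *wasll*. LOC549858 (*abo.2*, a glycosyltransferase of the ABO family) had 264.8 TPM in *nup107* MO and 273 TPM in UIC at the start and halved at 7.53 hpf in *nup107* MO and 7.55 hpf in UIC. Its GP LR of -13.2 was among the 5 lowest, where 1 joint curve described both conditions better than 2 curves. LOC100486704 (*b4galt3*, a galactosyltransferase) halved at 7.16 hpf in *nup107* MO and 7.05 hpf in UIC. LOC100490741 (*trim21*, an E3 ubiquitin ligase) halved at 8.86 hpf in *nup107* MO and 7.99 hpf in UIC, and at 11 to 12 hpf it kept 19.3% of its start in *nup107* MO and 8.78% in UIC. Its starts differed, with 17.7 TPM in *nup107* MO and 22.6 TPM in UIC, and its log2 difference over 3.5 to 10.5 hpf was 0.07 ± 0.05 (limma adjusted p = 0.357). The roles of these genes are known mainly from other vertebrates.

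The other members with the lowest GP LR were LOC101730599 (-14.5), LOC100493862 (-14.0), LOC100486817 (-12.9) and gene13675 (-12.8). For LOC100493862 the levels at 2 to 3 hpf were 1278 TPM in *nup107* MO and 1219 TPM in UIC, and those at 11 to 12 hpf were 15.7 TPM in *nup107* MO and 17.7 TPM in UIC. An LR below 0 says that 1 curve was preferred, and does not show that the levels were equal.

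By 11 to 12 hpf, 91 of the 107 transcripts (85.0%) were under 10% of their start in *nup107* MO, as all were in UIC by selection, and 553 of the 594 named cleared genes (93.1%) were. The other 16 kept 10.2% to 23.6%. The highest was LOC100496129 and the next LOC100490741. In between, LOC105947808 kept 13.2% in *nup107* MO and 9.69% in UIC, LOC100145131 kept 12.7% in *nup107* MO and 9.97% in UIC, and gene10062 kept 12.7% in *nup107* MO and 7.78% in UIC. Most of these lay close to the limit in UIC too. The median over all 107 transcripts was 4.30% in *nup107* MO and 4.76% in UIC. Just inside the limit of 10% in UIC were LOC100145131 (9.97%) and LOC101734677 (9.91%), and just outside LOC101730887 and LOC100493455, at 10.0016% and 10.0174%. Just inside 20 TPM were gene13577 (20.8 TPM) and gene12079 (21.3 TPM), and just outside LOC101733968 (19.99 TPM) and gene5294 (19.98 TPM).

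Rows without a symbol and LOC rows differed in level at the start, with medians of 33.8 TPM in *nup107* MO and 26.9 TPM in UIC for the 26 without a symbol, and 75.5 TPM in *nup107* MO and 77.0 TPM in UIC for the 81 LOC rows. Of the 26, 14 were later in *nup107* MO by half-clearance time (median difference 0.126 h), and of the 81, 25 were later (median difference -0.126 h). Limma called 6 of the 26 higher and 1 lower, and 1 of the 81 higher and 15 lower, where 7.68% of all genes were called higher and 4.06% lower. The 5 rows that rest on the UIC 2 hpf library are all among the 26, and each was later in *nup107* MO. Of these, gene9002 was not tested, and the others are all among the 6 called higher. Both contrasts between the 26 and the 81 therefore rest in part on these rows.

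Maternal mRNAs with known behaviour were read in the same libraries for context. Of 11 such genes, *mos*, *ccna1*, *hivep1* and *arid4b* met the same limits. The kinase gene *mos*, a classical maternal message of the oocyte, halved at 7.85 hpf in *nup107* MO and 7.39 hpf in UIC. For *ccna1*, which encodes the embryonic cyclin A, the times were 6.38 hpf in *nup107* MO and 6.36 hpf in UIC. Outside the limits, *aurka* halved at 6.39 hpf in *nup107* MO and 4.02 hpf in UIC, and *ccnb2* at 7.59 and 7.33 hpf. Each of these times was thus later in *nup107* MO, but for *mos*, *ccna1* and *ccnb2* by less than the 0.5 h between samples. The start of *mos* was lower in *nup107* MO (79.1 TPM, and 107.0 TPM in UIC), which by itself favours a later time. The same held for *aurka* and *ccna1*, while the start of *ccnb2* was higher in *nup107* MO. By limma, *mos*, *aurka*, *ccna1* and *ccnb2* were not called (adjusted p from 0.0865 to 0.599). The other 7, *rest*, *hivep1*, *arid4b*, *bbx*, *mga*, *znf462* and *znf518a*, were each called higher in *nup107* MO, with log2 differences from 0.43 to 1.18. The study chose these on the same libraries, so they are not independent evidence of a direction. Half-clearance time, taken from each condition's own start, did not follow these calls. It was earlier in *nup107* MO for *hivep1* (7.00 hpf in *nup107* MO and 7.65 hpf in UIC). The same held for *arid4b* (6.83 and 7.02 hpf) and *znf462* (7.52 and 7.62 hpf). In contrast *znf518a* was later (8.79 and 7.67 hpf), *rest* had a time in *nup107* MO alone and *bbx* in neither. The start of *hivep1* was higher in *nup107* MO (35.9 TPM, and 20.6 TPM in UIC). So were those of *arid4b* (63.1 and 49.5 TPM) and *znf462* (116.6 and 89.9 TPM), which by itself favours an earlier time. At 6 hpf *hivep1* had 52.3 TPM in *nup107* MO and 12.35 TPM in UIC. The times of *hivep1*, *arid4b* and *znf462* therefore do not show earlier clearance in *nup107* MO. For *mga* the times were 6.87 and 7.20 hpf, but that in UIC is a last fall after a rebound. From a start of 15.7 TPM, *mga* in UIC had 6.50 TPM at 3 hpf, 4.39 TPM at 6 hpf and 11.5 TPM at 6.5 hpf. In *nup107* MO it had 24.2 TPM at 3 hpf and 23.2 TPM at 6 hpf. Its times therefore do not show earlier clearance in *nup107* MO.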

How the data were processed

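The authors ran STAR and RSEM on stranded paired-end polyA+ reads, with Xt9.1 and the ERCC sequences as reference, and deposited TPM per gene whose totals include the ERCC rows. Versions are not given in the sources used here. The deposited TPM lack the dinucleotide correction of the study. The table named for ribozero libraries is identical to the polyA+ table, so those 42 samples were not analysed here. Reads of near-identical copies could have been shared among rows by RSEM.

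Members and lists were chosen with earlier results of these data known. Genes over 0.4 TPM at 6 consecutive time points in either condition were tested (15011). The GP test used sqrt(1 + 1000 x/max), a Matern 5/2 kernel and normal priors on the log hyperparameters, read as means of 3, 2 and 0 and SDs of 2, 4 and 4, and was made for these 15 time points on uncorrected TPM. Limma used log2(TPM + 1), a scale that understates changes of low genes, with time point as a block, since both conditions were sampled at each time. With 1 library per time point and condition, no mean over replicates is given. Both tests were tested on simulated data with a constant change. The GP was fitted by a search over 46 length scales. Named are the 10 most abundant transcripts, the 5 earliest and 5 latest to halve in UIC and the 5 largest limma calls in each direction. Also named are the transcripts with the 5 highest and the 5 lowest GP LR, the 2 rows nearest each limit and *nup107*. Other names were chosen after their values were seen. The alternatives covered scaling, filters, pseudocount, priors, time points and the limits of the rule. Software was Python 3.11.15, numpy 2.4.6, scipy 1.17.1, pandas 2.3.3, numba 0.67.0, matplotlib 3.10.9, R 4.3.3 and limma 3.58.1.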

Additional observations from a re-analysis of the deposited data

How the results depend on the processing

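The median half-clearance difference stayed between -0.126 and -0.0445 h under every alternative run, and the median half-clearance time in UIC moved only for the 25% level, to 8.23 hpf. The window contrast gave 0 calls in every alternative run. GP calls in the higher direction, 8 in the report, were 5 at an LR over 3, 5 with the log priors added, 2 with a start of at least 50 TPM, 4 with a limit under 5% and 4 without the UIC 2 hpf library in the rule; they were 7 to 12 otherwise. GP calls in the lower direction, 0 in the report, were 1 with a limit under 20%, 1 with all 21 time points, 2 with scaling by median ratios and 1 without the 6 hpf pair. Limma calls, 7 higher and 16 lower in the report, were 0 higher with a start of at least 50 TPM, 3 higher with a limit under 5%, 15 higher with a limit under 20% and 4 higher without the UIC 2 hpf library in the rule. They were 17 higher and 1 lower with ERCC scaling (12.2% and 0.187% of all genes) and 25 lower with median ratios (6.22% of all genes). Lower calls were 10 without the 7 hpf pair (2.82% of all genes, against 4.06% with it), 11 without the 9 hpf pair (2.76%), 8 without both (1.89%), and 8 beside 4 higher without the 6, 8 and 9 hpf pairs (1.73%). With every second time point limma called 0 higher and 0 lower, where 3 of 15011 genes were called in all; that setting keeps fewer samples. Without the replicate block, time being fitted as a spline in place of the pairing by time point, limma called 8 higher and 13 lower. For the called or named transcripts 370 comparisons were made. Among them no log2 difference that was called changed sign, 55 lost their call and 6 gained one. Differences that were not called could change sign, as that of LOC101733623 did, from -0.04 to 0.01 with all 21 time points. The cause of these changes was not tested beyond the settings themselves.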
